A study of Homo sapiens with 16 samples.

Results

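The enzymes that supply deoxynucleotides for DNA synthesis were followed in SUM225 cells during 45 h of HER2 kinase inhibition. They comprised 8 genes, RRM1, RRM2, RRM2B, TYMS, TK1, DUT, DCK and DTYMK, and every probe of the array that carried 1 of these symbols was taken. This gave 10 probes of the 24526 on the table, which holds 18631 gene symbols. DUT had 3 probes and each of the other genes had 1. Of the 10 probes, 9 (7 genes) passed the filter on detection and were tested among the 16110 probes that passed it. DTYMK did not pass.

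Ribonucleotide reductase makes deoxynucleotides from ribonucleotides, with RRM1 as the large subunit and either RRM2 or RRM2B as the small subunit. RRM2 is the small subunit of cells in S phase, whereas RRM2B is a target of p53 that serves DNA repair and mitochondrial DNA in cells that do not divide. Thymidylate is made from dUMP by TYMS (thymidylate synthase) or salvaged by TK1 (the cytosolic thymidine kinase), DUT (dUTPase) hydrolyses dUTP to dUMP, DCK phosphorylates deoxycytidine, and DTYMK is the thymidylate kinase that follows TYMS and TK1.

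SUM225 is a breast cancer cell line in which HER2 is amplified, and all cultures received CP724,714, a small molecule inhibitor of the HER2 kinase, at 1 µM. Each of 16 parallel cultures was taken at a different time, every 3 h from 0 h to 45 h, and gave 1 Illumina bead array. The sample labels give a medium with serum, insulin and hydrocortisone, whereas the study's methods give a serum-free medium without insulin for this line, and which of them these cultures had was not determined. All groups are thus 1 line with 1 treatment, there was 1 array per time point, and no untreated time course was analysed here. Time in the inhibitor and time after the change of medium therefore cannot be told apart, and the errors below are standard errors of fits over the 16 arrays.

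Over the arrays the median signal intensity ran from 242 to 384, and 57.5% to 61.5% of the probes were detected, meaning a detection p-value under 0.05. The 7 epithelial and HER2 amplicon markers (EPCAM, CDH1, KRT8, KRT18, KRT19, ERBB2 and GRB7) were detected on all 16 arrays, with a summed signal between 210000 and 278000. Of the leukocyte markers PTPRC was detected on none and CD3E on 1 array, while CD14 was detected on 16. Of the 4 fibroblast markers, COL3A1, PDGFRB and THY1 were detected on none and COL1A1 on 5 arrays (summed signal 695 to 937). Of the 3 endothelial markers PECAM1 was detected on 16 arrays, KDR on 4 and CDH5 on 1 (summed signal 681 to 1040). The precision of each estimate is limited by the number of arrays. In RNA of whole cultures, fewer cells that express a gene and less RNA of it per cell cannot be told apart.

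The promoters of the genes whose signal moved are shown first, because these genes are textbook targets of the E2F factors, which drive S phase transcription. Each line gives the 250 bases before the transcription start, 5′ to 3′ on the strand of the gene, from RefSeq. For RRM2, TK1 and DUT, which have several annotated starts, the most downstream start is shown, and for DUT also the most upstream one. Capitals mark 3 motifs searched on both strands. An E2F-type site was TTCCCGC or TTCGCGC or TTGCCGC or TTGGCGC. The CCAAT box was CCAAT, and the CHR (cell cycle genes homology region) was TTTGAA or TTCGAA. No 2 of the motifs overlapped in these windows.
RRM1, chr11:4094435-4094684, plus strand, GRCh38.p14: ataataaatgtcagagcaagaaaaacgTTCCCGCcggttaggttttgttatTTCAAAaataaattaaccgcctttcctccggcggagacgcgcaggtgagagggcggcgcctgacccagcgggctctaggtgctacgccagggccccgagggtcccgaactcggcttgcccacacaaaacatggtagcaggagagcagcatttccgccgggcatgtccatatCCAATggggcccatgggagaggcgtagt
RRM2, chr2:10122489-10122738, plus strand, GRCh38.p14: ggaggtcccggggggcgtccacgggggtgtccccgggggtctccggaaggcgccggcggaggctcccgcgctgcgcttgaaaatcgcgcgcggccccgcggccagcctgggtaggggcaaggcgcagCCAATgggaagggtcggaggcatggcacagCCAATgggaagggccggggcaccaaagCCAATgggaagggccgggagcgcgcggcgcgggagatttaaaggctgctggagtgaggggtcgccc
TYMS, chr18:657403-657652, plus strand, GRCh38.p14: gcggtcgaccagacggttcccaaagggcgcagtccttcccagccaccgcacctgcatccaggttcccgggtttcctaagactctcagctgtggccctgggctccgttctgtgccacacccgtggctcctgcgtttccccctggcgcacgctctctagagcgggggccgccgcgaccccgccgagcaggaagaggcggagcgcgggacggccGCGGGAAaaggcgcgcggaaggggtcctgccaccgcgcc
TK1, chr17:78187053-78187302, minus strand, GRCh38.p14: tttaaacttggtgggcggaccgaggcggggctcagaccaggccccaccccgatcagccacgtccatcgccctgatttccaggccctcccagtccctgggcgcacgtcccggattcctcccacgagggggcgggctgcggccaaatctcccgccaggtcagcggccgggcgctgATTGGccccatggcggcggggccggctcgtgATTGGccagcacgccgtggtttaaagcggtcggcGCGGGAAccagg
DUT, most downstream start, chr15:48331947-48332196, plus strand, GRCh38.p14: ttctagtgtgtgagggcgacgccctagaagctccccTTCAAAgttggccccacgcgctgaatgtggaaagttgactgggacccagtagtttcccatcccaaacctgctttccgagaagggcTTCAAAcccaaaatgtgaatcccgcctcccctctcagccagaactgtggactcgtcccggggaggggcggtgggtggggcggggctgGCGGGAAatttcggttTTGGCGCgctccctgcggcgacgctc
DUT, most upstream start, chr15:48330845-48331094, plus strand, GRCh38.p14: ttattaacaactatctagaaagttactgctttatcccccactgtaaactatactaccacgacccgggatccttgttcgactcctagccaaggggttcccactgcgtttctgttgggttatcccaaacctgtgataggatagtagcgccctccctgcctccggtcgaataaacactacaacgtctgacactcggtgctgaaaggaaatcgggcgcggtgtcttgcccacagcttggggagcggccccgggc

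An E2F-type site was found in 6 of the 12 windows of the 7 member genes with an entry, against 10.9% of the 35116 windows in the table. RRM2B had no entry, so its promoter was not searched. RRM1 had 1 such site that began 223 bases before the start, TYMS had 1 at 39 bases and TK1 had 1 at 12 bases. The downstream DUT start had 2, at 42 and 26 bases, and the other 3 DUT starts had none. The window shown for RRM2 had none of these letters but 3 CCAAT boxes at 123, 93 and 66 bases, and its upstream start had 1 E2F-type site. CCAAT was present in 5 of the 12 windows against 32% of all, and the CHR letters in 3 against 14.3%. DCK had 2 E2F-type sites, at 192 and 88 bases, and DTYMK had none. A match of letters is a description of the window and not evidence that a factor binds there.

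The signal of the subunit RRM2 fell more than that of any other member, those of TYMS, TK1, 2 of the 3 DUT probes and RRM1 fell as well, and that of RRM2B did not fall. How much more RRM2 fell depended on the background correction, as given below. In the limma fit of a cubic course in time, the linear change over 45 h was down in 6 of the 9 tested probes at an adjusted p under 0.05, against 21.7% of all probes tested, and up in 1 of 9, against 26%. The signal depended on time in 7 of 9, against 51.3%. The median linear change was -1.92 log2 units over the 9 member probes and 0.05 over all probes tested. The 6 falling probes did not go down steadily. On the 4 arrays from 0 h to 9 h each of them was above all of its 12 later values, and its largest drop lay between the arrays at 9 h and 12 h. The share of all tested probes with such a separation was not counted. A fitted step down at this border was called in 8.14% of them. With the steps at 12 h and 24 h beside the line, the linear fall no longer passed for ILMN_1732688 of DUT (adjusted p = 0.0877), and on the arrays from 12 to 45 h alone it did not pass for either falling DUT probe (-0.42 and -0.53, adjusted p = 0.531 and 0.417).

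**Figure D1:**
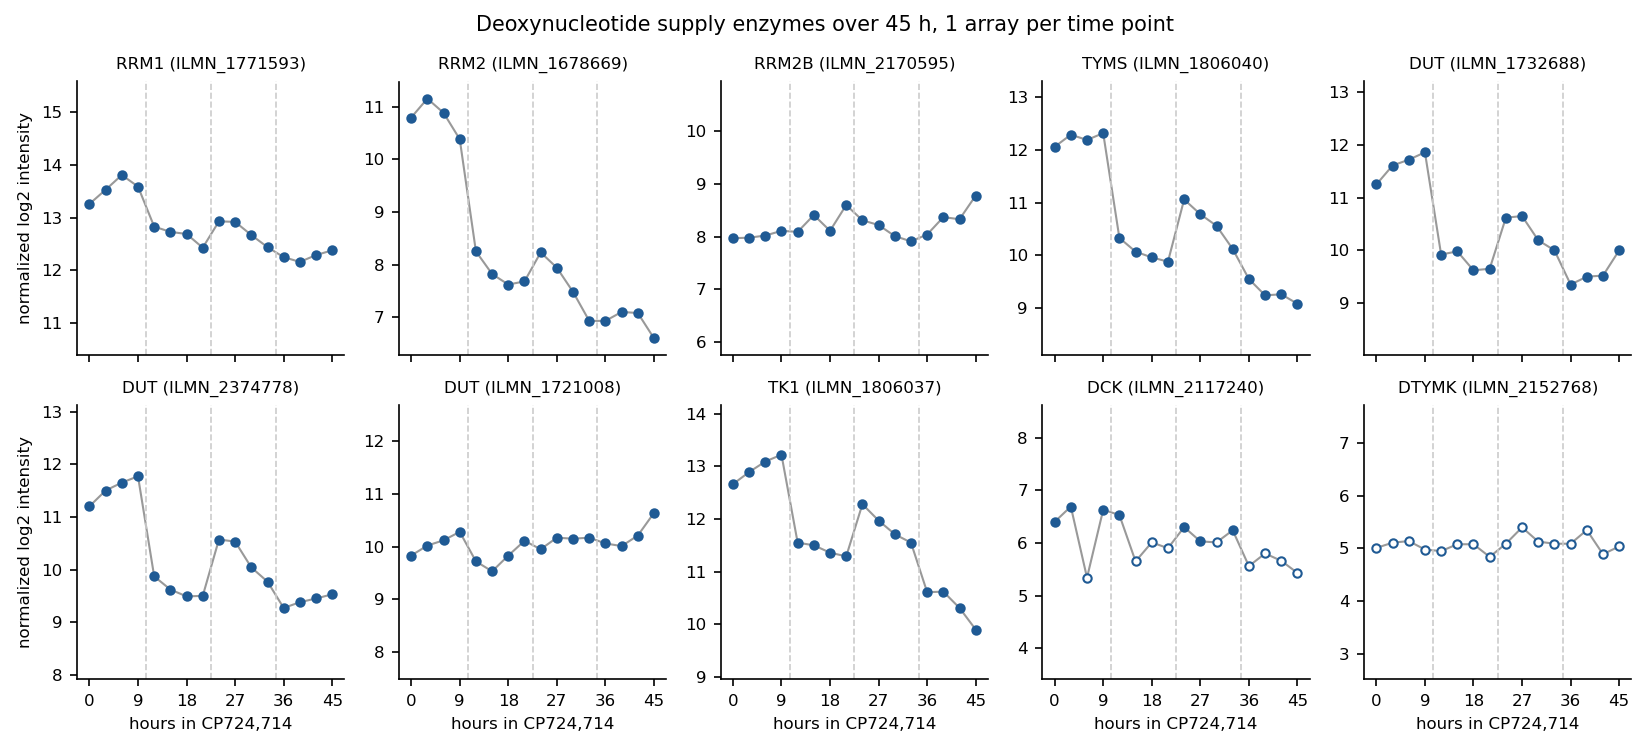
Normalized log2 intensity (y axes, each spanning 5.2 log2 units) of the 10 probes against hours in CP724,714 (x axes), 1 array per point, with filled points for detected and open points for undetected signals. Dashed lines stand between 9 and 12 h, 21 and 24 h, and 33 and 36 h, where RRM1, RRM2, TYMS, TK1 and 2 DUT probes drop, rise and, in part, drop again.

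RRM2 was at 10.79, 11.15, 10.88 and 10.38 log2 units at 0, 3, 6 and 9 h. It was at 8.25, 7.82, 7.62 and 7.68 at 12, 15, 18 and 21 h, at 8.23, 7.94, 7.48 and 6.93 at 24, 27, 30 and 33 h, and at 6.93, 7.10, 7.08 and 6.60 at 36, 39, 42 and 45 h. The first 4 arrays stood more than 2 log2 units above all others, and the lowest value was that of the last array. The 45 h array was 4.19 log2 units, or 18.3-fold, below the 0 h array. The fitted linear change was -4.36 ± 0.40 log2 units (SE, adjusted p = 4.05e-08), the rank of 4 among the falls of the 16110 probes. A departure of the course from linearity was called for RRM2 (adjusted p = 0.029) as the 1 member of 9, against 19.3% of all probes. That call was lost without the array at 3, 15, 18, 21 or 45 h, with an adjusted p of up to 0.076.

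The large subunit RRM1 changed less. It was at 13.26, 13.53, 13.81 and 13.59 at 0, 3, 6 and 9 h, at 12.83, 12.73, 12.69 and 12.43 from 12 to 21 h, at 12.93, 12.92, 12.67 and 12.44 from 24 to 33 h, and at 12.25, 12.16, 12.29 and 12.38 from 36 to 45 h. It was highest at 6 h, and the first 4 values did not overlap with the other 12. The linear change was -1.35 ± 0.20 (adjusted p = 1.17e-05), and 45 h was 1.85-fold below 0 h.

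RRM2B, the alternative small subunit, was at 7.97, 7.98, 8.02 and 8.11 from 0 to 9 h, at 8.09, 8.41, 8.11 and 8.60 from 12 to 21 h, at 8.31, 8.22, 8.01 and 7.91 from 24 to 33 h, and at 8.04, 8.37, 8.33 and 8.78 from 36 to 45 h. Its whole range was 0.87 log2 units, with the highest value on the last array, and early and late values overlapped. It passed the test of time dependence (adjusted p = 0.0369) but not that of the linear change, which was 0.37 ± 0.16 (adjusted p = 0.0626). The first call was lost without the array at 3, 30, 39 or 45 h (adjusted p = 0.302 without 45 h), and the linear change passed the test without the array at 15, 21, 33 or 36 h. On the same arrays the log2 difference of RRM2B minus RRM2 rose by 5.00 between 0 h and 45 h. Its mean was -2.78 from 0 to 9 h and 0.79 from 12 to 45 h. Over the 16 arrays this difference correlated with time with a Pearson r of 0.89 and a Spearman rho of 0.92. Permutation tests (100000 resamples, two-sided) gave an adjusted p of 4e-05 for both over 4 relations. The unadjusted p of 1e-05 was the smallest value attainable. The permutations treat the 16 arrays as exchangeable, whereas neighbouring arrays resemble each other, so these p-values can be too small. With both end arrays left out, r was 0.84. This describes an unequal change of the 2 subunits and sets no level of one against the other.

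TYMS was at 12.06, 12.29, 12.19 and 12.32 at 0, 3, 6 and 9 h, and at 10.33, 10.07, 9.96 and 9.88 at 12, 15, 18 and 21 h. It then stood at 11.06, 10.78, 10.56 and 10.12 at 24, 27, 30 and 33 h, and at 9.55, 9.24, 9.26 and 9.08 at 36, 39, 42 and 45 h. Within the first day the signal was level to 9 h and about 2 log2 units lower from 12 h, and the 24 h array was above all of those from 12 h to 21 h. The linear change was -3.02 ± 0.41 (adjusted p = 5.39e-06), and the 45 h array was 7.91-fold below the 0 h array.

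TK1 also dropped after 9 h and was higher again at 24 h. Its values were 12.66, 12.89, 13.09 and 13.22 from 0 to 9 h, 11.55, 11.50, 11.36 and 11.29 from 12 to 21 h, 12.28, 11.97, 11.71 and 11.55 from 24 to 33 h, and 10.61, 10.62, 10.31 and 9.90 from 36 to 45 h. It was highest at 9 h and lowest at 45 h, 6.77-fold below the 0 h array. The linear change was -2.68 ± 0.35 (adjusted p = 3.21e-06).

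The 3 DUT probes had different changes over 45 h. The probe ILMN_1732688 was at 11.25, 11.61, 11.72 and 11.86 from 0 to 9 h, at 9.92, 9.98, 9.62 and 9.65 from 12 to 21 h, at 10.62, 10.65, 10.19 and 10 from 24 to 33 h, and at 9.35, 9.50, 9.52 and 10 from 36 to 45 h. The probe ILMN_2374778 followed it closely, with 11.20, 11.50, 11.65 and 11.77, then 9.87, 9.62, 9.49 and 9.50, then 10.57, 10.53, 10.04 and 9.77, and then 9.27, 9.38, 9.45 and 9.53. Both were lowest at 36 h, and their linear changes were -1.92 ± 0.40 (adjusted p = 0.000511) and -2.07 ± 0.41 (adjusted p = 0.000306). The probe ILMN_1721008 was at 9.83, 10.02, 10.12 and 10.28 from 0 to 9 h, at 9.72, 9.53, 9.83 and 10.11 from 12 to 21 h, at 9.95, 10.17, 10.15 and 10.17 from 24 to 33 h, and at 10.06, 10.01, 10.21 and 10.64 from 36 to 45 h. Its early and late values overlapped, and it was the 1 member probe with a rise, by 0.41 ± 0.16 over 45 h (adjusted p = 0.0437). This rise was lost without the array at 0, 12, 18, 30, 33, 42 or 45 h, and was 0.25 (adjusted p = 0.254) without the last. It was also lost with cyclic loess (adjusted p = 0.101), no filter (0.0584), array weights (0.115), no intensity trend (0.0602), a straight line alone (0.065) or steps beside the line (0.0606), and the probe did not pass the test of time dependence (adjusted p = 0.0775). After the straight line of each probe was removed, its course correlated with those of ILMN_1732688 and ILMN_2374778 with r = 0.78 and 0.75 over the 16 arrays, which share all steps, against 0.09 and 0.05 before, and all 3 probes had their largest drop between 9 and 12 h.

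**Figure D2:**
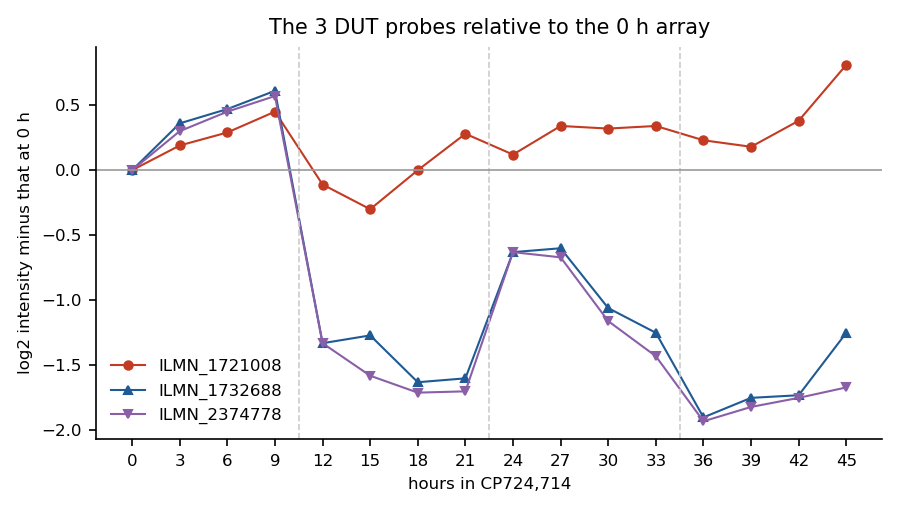
Log2 intensity of the 3 DUT probes minus that of the same probe at 0 h (y axis) against hours in CP724,714 (x axis), 1 array per point, with dashed lines between the sets of 4 arrays. ILMN_1732688 and ILMN_2374778 lie together below 0 from 12 h on, while ILMN_1721008 stays between -0.30 and 0.81.

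The difference of ILMN_1721008 minus ILMN_1732688 rose by 2.06 log2 units from 0 to 45 h, and correlated with time with r = 0.86 and rho = 0.84 over the 16 arrays (permutation tests, adjusted p = 8e-05 and 0.00016 over the 4 relations). Against ILMN_2374778 the rise was 2.48, with r = 0.87 and rho = 0.86 (permutation tests, adjusted p = 9.33e-05 and 0.00012). Between the 2 falling probes the difference changed by 0.42, with r = 0.38 and rho = 0.40 (permutation tests, adjusted p = 0.153 and 0.128). With both end arrays left out these r were 0.83, 0.82 and 0. Here too the permutations treat the arrays as exchangeable, so these p-values can be too small. The 2 rises were not steady. The differences against ILMN_1732688 and ILMN_2374778 had means of -1.55 and -1.47 from 0 to 9 h, and of 0.13 and 0.29 from 12 to 45 h. Between 9 and 12 h ILMN_1721008 changed by -0.57 log2 units, against -1.95 for ILMN_1732688 and -1.9 for ILMN_2374778. The DUT gene gives rise to a nuclear and a mitochondrial enzyme from different first exons, and the RefSeq table lists 4 starts for it, of which the most upstream and the most downstream are printed above. The files do not pair a probe with a transcript, so which product each probe measures was not determined.

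The salvage kinase DCK was detected on 7 of 16 arrays, at 0, 3, 9, 12, 24, 27 and 33 h, and its signal never exceeded 292. Its values lay between 5.34 at 6 h and 6.69 at 3 h, with a median of 6.01. The linear change was -0.72 ± 0.30 and did not pass the test (adjusted p = 0.0542), although it did without the array at 6, 15 or 33 h (adjusted p = 0.00376 without 6 h). Since the probe was not detected at 45 h, the difference between the 0 h and 45 h arrays is given as a bound, 1.12-fold or more. This bound of -0.16 log2 units is smaller than the residual SD of the cubic fit (0.39), so it shows no fall. DTYMK was detected on none of the arrays. Its signals were between 161 and 240 and its lowest detection p-value was 0.242, so this probe gives no course for the gene.

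**Figure D3:**
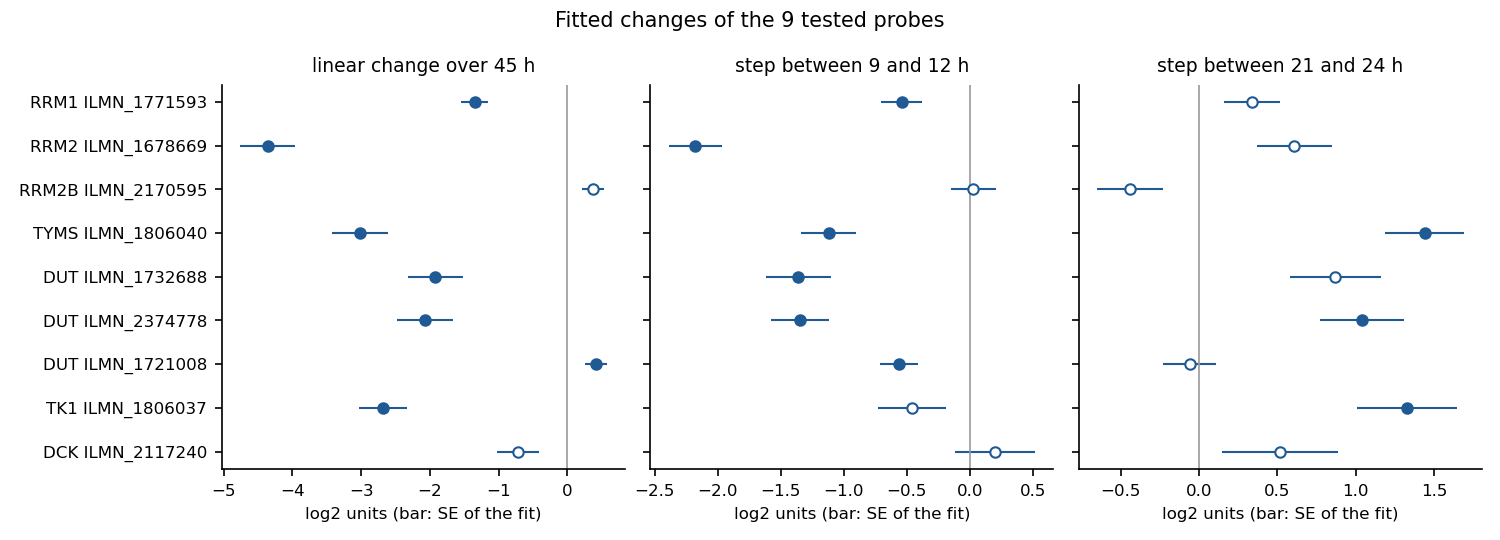
Fitted changes in log2 units (x axes) of the 9 tested probes (rows) with the SE of the fit as bars, filled where the adjusted p is under 0.05. RRM2 has the largest linear change (-4.36) and the largest step between 9 and 12 h (-2.18), and TYMS the largest step between 21 and 24 h (1.44).

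The interval between 9 h and 12 h held the largest difference of all 15 adjacent pairs of arrays for each of the 6 falling probes. The share of all tested probes with their largest difference there was not counted. Their root mean square difference in this interval was 0.42 log2 units, and no interval had a larger one. From 9 h to 12 h RRM2 was lower by 4.38-fold, TYMS by 3.96-fold, DUT by 3.85-fold (ILMN_1732688) and 3.73-fold (ILMN_2374778), TK1 by 3.19-fold and RRM1 by 1.70-fold. ILMN_1721008 of DUT was lower by 1.48-fold, also its largest difference, and RRM2B differed by -0.03 log2 units. A fall of 1.5-fold or more was thus seen in 6 of the 9 tested probes, against 7.06% of the 16110 probes. Among all probes ranked by this fall RRM2 was at rank 7, TYMS at 12, the DUT probes at 15 and 23, TK1 at 42 and RRM1 at 622.

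As a fitted step beside a straight line in time and a step at 24 h, the fall between 9 and 12 h passed the test in 6 of 9 member probes, against 8.14% of all. The step was -2.18 ± 0.21 for RRM2 (adjusted p = 2.49e-06), -1.12 ± 0.22 for TYMS (adjusted p = 0.00171), and -1.36 ± 0.26 and -1.35 ± 0.23 for ILMN_1732688 and ILMN_2374778 of DUT (adjusted p = 0.00147 and 0.000696). These 4 calls held without any 1 array. The step was -0.56 ± 0.15 for ILMN_1721008 (adjusted p = 0.0158), a call lost without the 15 h array or with array weights (adjusted p = 0.0546). That call was also lost with steps alone (adjusted p = 0.18) and on the arrays from 0 to 21 h only (0.0653). RRM1 had -0.54 ± 0.16 (adjusted p = 0.0271), lost without the array at 6, 9, 12, 15 or 45 h. Its call was also lost with no intensity trend (adjusted p = 0.056) and on the arrays from 0 to 21 h only (0.0812). For TK1 the step was -0.46 ± 0.27 (adjusted p = 0.29). It depended on the course assumed around it, and was -1.65 (adjusted p = 1.28e-05) beside a cubic course and -1.15 (adjusted p = 0.00644) where a step at 36 h was added. RRM2B (0.03 ± 0.18) and DCK (0.20 ± 0.32) had no step that passed the test.

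Between 21 h and 24 h, 4 of the same probes went up by 1.5-fold or more. The 24 h array was above the 21 h array by 2.27-fold for TYMS, 2.10-fold and 1.95-fold for ILMN_2374778 and ILMN_1732688 of DUT, and 1.99-fold for TK1. RRM2 (1.46-fold) and RRM1 (1.42-fold) were higher too but under 1.5-fold, and RRM2B was lower by 0.29 log2 units. These were 4 of 9 tested member probes, against 5.11% of all, and the same 4 were among those lower by 1.5-fold at 12 h, a combination found in 1.3% of all probes. For none of these 4 did the 24 h array return to the values of 0 to 9 h.

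The fitted step between 21 and 24 h passed the test in 3 of 9, against 1.33% of all probes. It was 1.44 ± 0.25 for TYMS (adjusted p = 0.00378), 1.33 ± 0.32 for TK1 (adjusted p = 0.0321) and 1.04 ± 0.27 for ILMN_2374778 of DUT (adjusted p = 0.0472). Without the 24 h array none of the 3 passed. The call of TYMS held without every other array, that of TK1 was also lost without the array at 15, 18, 27, 30, 33, 42 or 45 h, and that of ILMN_2374778 without that at 3, 6, 12, 15, 18, 21, 27, 30, 33, 39 or 42 h. With a step at 36 h added, TYMS passed (1.09 ± 0.20, adjusted p = 0.00654) and TK1 did not (0.85 ± 0.24, adjusted p = 0.0922). The step was 0.87 ± 0.29 for ILMN_1732688 (adjusted p = 0.16; 0.0372 without the 0 h array), 0.61 ± 0.24 for RRM2 (adjusted p = 0.249), 0.34 ± 0.18 for RRM1 (adjusted p = 0.457) and -0.44 ± 0.21 for RRM2B (adjusted p = 0.385).

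**Figure D4:**
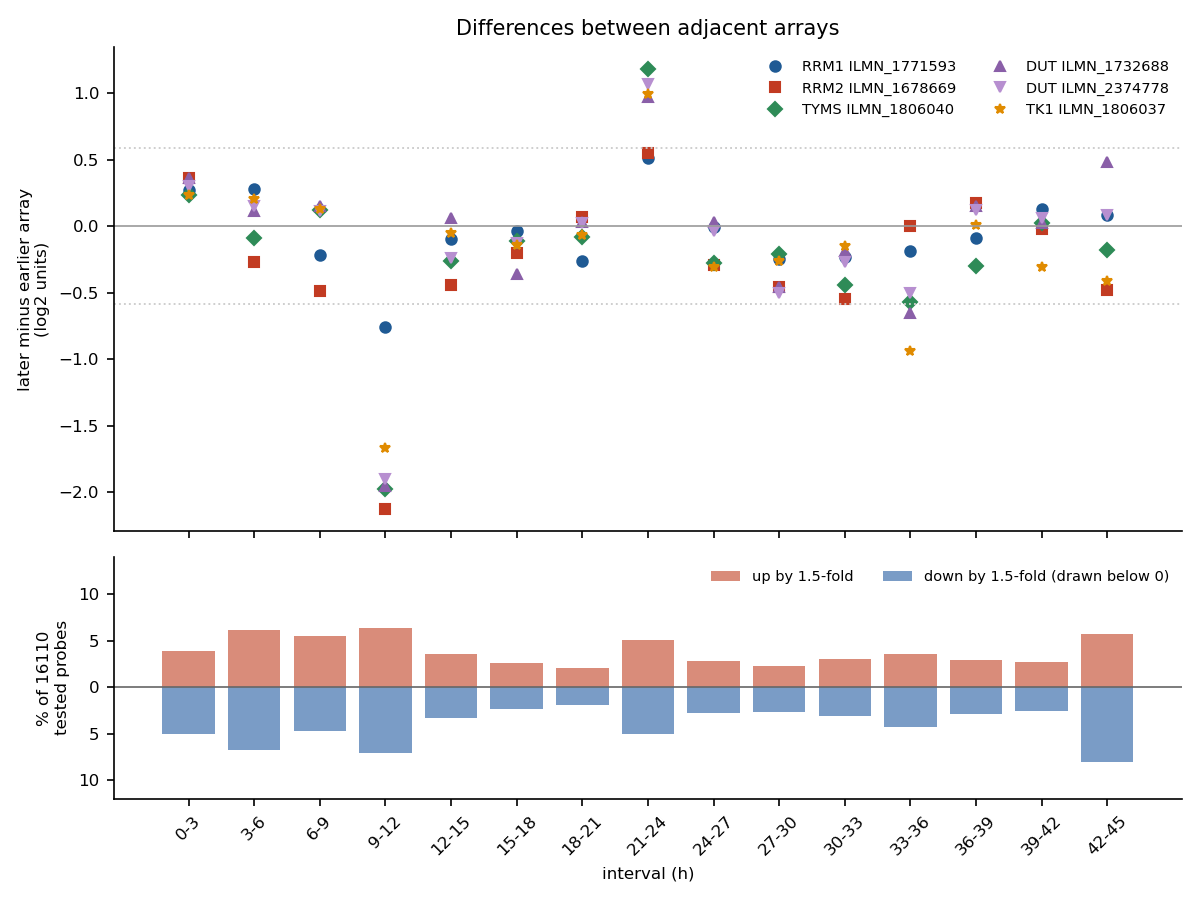
Upper panel, difference of the later minus the earlier array in log2 units (y axis) for the 6 falling probes in each of the 15 intervals (x axis, h), with dotted lines at 1.5-fold. Lower panel, percent of the 16110 tested probes that went up or down by 1.5-fold in the same interval. The members lie near -2 at 9 to 12 h (RRM1 at -0.76) and near 1 at 21 to 24 h (RRM2 and RRM1 near 0.5), where 7.06% of all probes went down and 5.11% up.

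Another border lay between 33 h and 36 h, where TK1 was lower by 1.92-fold, ILMN_1732688 of DUT by 1.57-fold and the dim DCK probe by 0.69 log2 units. These were 3 of 9, against 4.32% of all probes. With a step at 36 h added to the fit it was -1.12 ± 0.24 for TK1 (adjusted p = 0.0271), the 1 member of 9 past the test, against 0.689% of all. This call was lost without the array at 9, 12, 21, 27 or 36 h.

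Many other probes also differed at these borders. The root mean square difference over all tested probes was 0.42 log2 units between 9 and 12 h, as large as between 42 and 45 h, and 0.36 and 0.33 at the other 2 borders, against 0.26 to 0.30 in the remaining intervals from 12 h to 42 h and 0.35 to 0.40 in the intervals before 9 h. The borders separate the arrays into sets of 4 that follow each other, and the labels name no chip or batch, so a set and its hours cannot be told apart. Within sets, the fit with the set as a factor called 0 of the 9 member probes as falling, against 0.478% of all probes. Its change scaled to 45 h was -3.29 ± 0.78 for RRM2 (adjusted p = 0.0516, and under 0.05 without the array at 0, 36 or 42 h), -1.96 ± 0.59 for TYMS (adjusted p = 0.122, and 0.0286 without the 0 h array), -1.48 ± 0.70 for TK1 (adjusted p = 0.338), -0.45 ± 0.56 for RRM1 (adjusted p = 0.764), and -0.54 ± 0.75 and 0.17 ± 0.79 for ILMN_2374778 and ILMN_1732688 of DUT. The same fit called 1 of the 9 as rising, ILMN_1721008 of DUT (2.08 ± 0.48, adjusted p = 0.0439), against 0.422% of all probes. This call was lost whichever 1 of the 16 arrays was left out, with an adjusted p from 0.0503 (without 27 h) to 0.126 (without 21 h). From 24 to 33 h all 6 falling probes ended lower than they began, by 0.49 log2 units for RRM1 to 1.30 for RRM2. From 12 to 21 h all 6 did so too, by 0.26 for TK1 to 0.57 for RRM2. From 0 to 9 h 5 of them ended higher, by 0.26 for TYMS to 0.62 for ILMN_1732688, and RRM2 ended 0.41 lower. From 36 to 45 h RRM2, TYMS and TK1 ended lower, by 0.33, 0.47 and 0.71. RRM1, ILMN_2374778 and ILMN_1732688 then ended higher, by 0.12, 0.26 and 0.65. The share of all probes with such changes was not counted.

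The 6 falling probes resembled each other over the arrays, with Pearson r from 0.89 to 0.99 among their 15 pairs, and from 0.54 to 0.98 after the straight line of each was removed. These arrays share all steps, so the values are a description. Of all genes on the table other than the members, the 5 with a course most like that of RRM2 over the 16 arrays were MCM7 (r = 0.991), CDC45 (named CDC45L on the array, 0.989), DONSON (0.987), CKB (0.987) and POLA2 (0.986). MCM7, CDC45 and POLA2 are on the list of replication machinery genes used below, and DONSON was not put on that list. CKB is the brain type creatine kinase. For RRM2B they were EDEM1 (r = 0.877), PAPSS1 (0.832), ZNF28 (0.828), TLR3 (0.826) and LOC653328 (0.825), all lower than the values found for RRM2. The range of RRM2B was also smaller, 0.87 log2 units against 4.55 for RRM2.

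**Figure D5:**
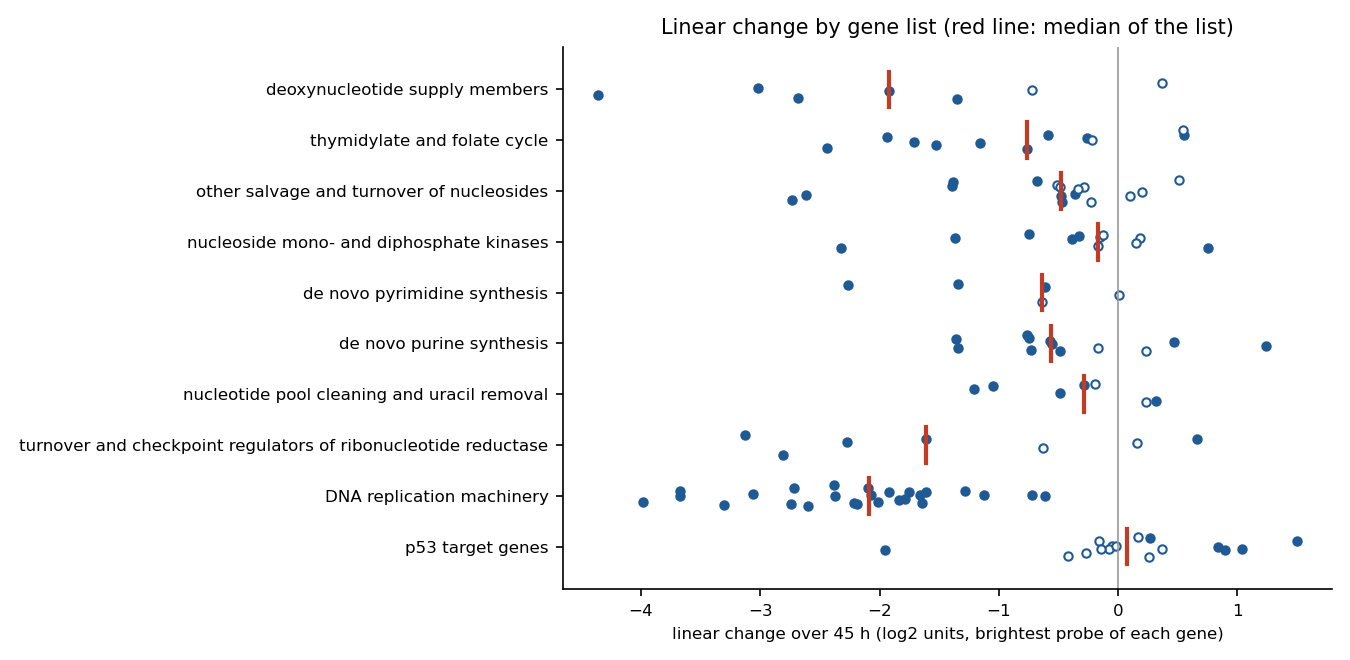
Linear change over 45 h in log2 units (x axis) of each tested gene, by its brightest probe, in the members and 9 gene lists (rows), filled where the adjusted p is under 0.05, with the median of each list as a red line. All 26 replication genes lie below 0, with a median of -2.09, and the p53 targets spread on both sides of 0.

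The genes around the members in nucleotide metabolism had smaller median changes than the 9 member probes (-1.92), and no test of this was made. The counts of genes in the lists below are by the brightest probe of each gene, and of all 16110 probes 21.7% fell and 26% rose. Among the thymidylate and folate cycle genes 8 of 11 tested fell and 1 rose (median -0.76 log2 units). Among those that fell was SLC19A1, the reduced folate carrier (-1.94 ± 0.19, adjusted p = 9.51e-08). Of the other salvage and turnover genes 8 of 16 fell and none rose (median -0.47), led by the uridine phosphorylase UPP1 (-2.73 ± 0.24). SAMHD1, which degrades deoxynucleotides, was detected on no array. De novo pyrimidine synthesis had 3 falling genes of 5, CTPS1 (-2.26), DHODH (-1.34) and CAD (-0.61). De novo purine synthesis had 8 of 12, led by PFAS (-1.36), and 2 that rose, ADSS1 (1.24) and ADSS2 (0.47). Of the nucleoside mono- and diphosphate kinases 5 of 11 fell, among them NME1 (-2.32), NME4 (-1.37), NME2 (-0.75) and GUK1 (-0.39), and CMPK1 rose (0.75). Of 7 genes of nucleotide pool cleaning and uracil removal 4 fell, among them NUDT1 (-1.21), UNG (-1.05) and DCTPP1 (-0.29), and ITPA rose (0.32). UNG is the uracil glycosylase that acts on the uracil that DUT keeps out of DNA.

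Genes known to act on ribonucleotide reductase or its transcription fell in 4 of 7 cases, against 21.7% of all probes, CDK1 (-3.13 ± 0.20), CHEK1 (-2.81 ± 0.20), CCNF (-2.27 ± 0.17) and CDK2 (-1.61 ± 0.17), and ATR rose (0.66 ± 0.15). CCNF, the cyclin F subunit of the ligase that removes RRM2 protein, fell over 45 h as RRM2 did. Its difference from the 9 h to the 12 h array was -0.56 log2 units. As a step fitted beside a straight line it was 0.06 ± 0.19 (adjusted p = 0.878), and other courses around the step were not tried for CCNF. E2F1 was detected on 8 arrays and had a change of -0.63 ± 0.33 (adjusted p = 0.129). The replication machinery fell in 26 of 26 tested genes, and under each of 4 other scalings or background corrections, led by GINS2 (-3.98 ± 0.24, adjusted p = 2.36e-10). The step between 9 and 12 h was down in 24 of these 26, and in 4 of 7 members by the brightest probe per gene, against 8.14% of all probes. The step between 21 and 24 h was up in 2 of the 26, MCM10 (0.90, adjusted p = 0.0422) and CDC45 (0.90, adjusted p = 0.0107), and in 2 of the 7 members, against 1.33% of all probes. The median difference of the replication genes was -1.12 log2 units from 9 to 12 h and 0.07 from 21 to 24 h, and that of the 7 member genes was -1.67 and 0.55. Whether the members differ from the replication genes at these borders was not tested.

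Of 16 tested p53 targets, the group to which RRM2B belongs, 5 rose, TP53INP1 (1.5), TP53I3 (1.04), XPC (0.90), DDB2 (0.84) and CCNG1 (0.27), and FAS fell (-1.95, detected on 8 arrays). The 5 of 16 lie near the 26% of all probes that rose. The median of these genes was 0.07 log2 units over 45 h. Their step between 21 and 24 h was up in 3 of 16, against 1.33% of all probes, CDKN1A (1.14), TP53I3 (1.14) and GADD45A (0.74), and that of RRM2B was -0.44 ± 0.21.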

How the data were processed

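Total RNA of 16 parallel SUM225 cultures, 1 per time point, was hybridised to Illumina bead arrays. The deposited values were signal intensities of the probes on a linear scale, with no normalization by the authors, each with a deposited detection p-value. The study's methods name quantile normalization, a later step. The table states no genome build.

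Intensities were corrected with normexp using the detection p-values (offset of 16), quantile normalized and set to log2 (neqc, limma 3.58.1, R 4.3.3). The offset reduces fold changes of dim probes. The filter required detection (p under 0.05) on at least 3 arrays. lmFit and eBayes with an intensity trend were fitted to all 16110 probes, with a cubic course or with a straight line and steps at 12 h and 24 h. Tests were two-sided with Benjamini-Hochberg adjustment over all probes, at 0.05. Errors came from deviations around the fit, since no time point had a replicate, and cover the spread between these samples. Fits were checked on simulated data with independent noise on each array. That check does not cover shifts shared by sets of arrays or the likeness of neighbouring arrays. Differences between 2 arrays were counted at 1.5-fold with no test.

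Members, gene lists and tests were chosen with earlier results of these data known. Besides the members, the genes named were the largest rise and fall past the threshold in each list (brightest probe per gene), all where at most 5 were counted, and the 5 most like RRM2 and RRM2B. Some genes of these lists are not reported here, and they count in the totals of their lists. SLC19A1, SAMHD1 and E2F1 were named after their values were seen. All 8 members matched the RefSeq gene table, and 7 had promoter windows (250 bases before the start, GRCh38.p14). Python 3.11.15 and matplotlib 3.10.9 drew the figures.

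Alternatives changed the background correction (none, offset of 50), the scaling (median, cyclic loess), the filter (none, all 16 arrays), the weights, the trend, the course and the fold, took the set of 4 arrays as a factor, used means of 2 arrays or the brightest probe per gene, or left out each array. Fits to part of the arrays were added after the data were seen.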

Additional observations from a re-analysis of the deposited data

How the results depend on the processing

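The falls of RRM2, TYMS, TK1, RRM1 and 2 DUT probes over 45 h passed the test under each normalization and filter tried and without any 1 array, with 6 to 7 member probes falling. With steps beside the line 5 fell, and 4 on the arrays from 12 to 45 h only. The number was 0 with the 12 h set as a factor. The step between 9 and 12 h was called in 4 to 6 member probes without 1 array. The step between 21 and 24 h was the least stable. Its count of 3 was 0 to 4 without 1 array, 5 with array weights, 5 beside a cubic course, 5 on the arrays from 12 to 33 h only, and 1 with no intensity trend, with steps alone or with a step at 36 h added. With steps alone that 1 was ILMN_1721008 of DUT (adjusted p = 0.0499), which was not among the 3. TYMS, TK1 and ILMN_2374778 of DUT did not pass with steps alone (adjusted p = 0.873, 0.62 and 0.609). At 2-fold, 2 in place of 4 adjacent differences were counted. Departures from a straight line were called in 0 to 1 member probes without 1 array, 0 with no intensity trend and 2 with a quartic course. The causes were not tested.

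Some estimates changed sign. With steps and no line, that between 21 and 24 h was -0.14 for DCK, -0.16 for RRM1, -0.56 for RRM2, -0.30 for TK1, -0.10 for TYMS and 0.38 for ILMN_1721008 of DUT, since the overall change then enters the step, and that between 9 and 12 h was -0.24 for DCK. For ILMN_1721008 of DUT the step between 21 and 24 h was also 0.006 with median scaling, 0.047 with array weights, 0.069 beside a cubic course, 0.089 alone beside the line and -0.15 to 0.069 without 1 array. The linear change of ILMN_1732688 of DUT was 0.17 with the set as a factor. Between 9 and 12 h, RRM2B had -0.059 on the arrays from 0 to 21 h and -0.10 to 0.16 without 1 array, and DCK had -0.14 to 0.47 without 1 array. No paired analysis was possible because the time points are single arrays. Signals near background limit DCK and DTYMK and the size of the fall of RRM2. Steps cannot be separated from a course that bends sharply.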
